A study of Homo sapiens with 30 samples.

Results

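Long noncoding RNA genes were followed by name in BEAS-2B, an established human bronchial epithelial line, after exposure to hookah smoke. The genes were the rows with a noncoding RefSeq accession (NR_) named as small nucleolar RNA host genes (SNHG), long intergenic noncoding RNAs (LINC) or antisense RNAs (a name ending in AS and a number). A gene was kept where its FPKM (fragments per kilobase of transcript scaled to the mapped fragments of the library) reached 1 in 3 or more of the 30 samples, with the highest row per name. This gave 168 of 1860 such names, among 8531 genes of all kinds that passed the same minimum. They were 13 SNHG, 40 LINC and 115 antisense genes. The choice used neither exposure nor time as such, but 16 of the 168 genes would have missed the minimum without the wells of 1 group. TIPARP-AS1, IDI2-AS1, LINC00707 and LINC01023 are the ones among them whose differences are reported, and a high value in that group is in part a product of the choice. Genes can also pass through several groups where they are high, as MBNL1-AS1 did through the exposed wells at 2 h.

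The wells received charcoal smoke with no shisha (charcoal), charcoal with a non-tobacco herbal shisha (herbal, charcoal), charcoal with tobacco shisha (tobacco, charcoal), tobacco shisha on an electronic heater (tobacco, electric), or an internal control, for 30 min on a rocker. RNA was taken 2 h or 24 h after exposure from 3 wells per group. Each smoke was used at the highest concentration without release of lactate dehydrogenase at 24 h, so the doses were matched on toxicity and not on smoke amount. What the internal control wells received is not given in the sources used here. Nothing says that the wells were separate cultures, so p-values measure only the spread between wells, which may be technical. BEAS-2B is 1 virus-immortalised line grown without the other cells of an airway.

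Long noncoding RNAs are transcripts that are spliced and polyadenylated like messenger RNAs but are not known to be translated into a long protein. SNHG transcripts carry small nucleolar RNAs in their introns, which guide chemical modification of ribosomal RNA; the spliced remainder often ends in a translation-coupled decay pathway, so its level follows both transcription and decay. Antisense RNAs start from the opposite strand of a named gene, often at a shared promoter, and some regulate that neighbour.

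The library kit did not mark strand, so reads from an antisense gene and from an exon overlapping it on the other strand cannot be told apart. Of the 114 antisense genes with an exon model in GENCODE 29, 74 overlapped an exon on the opposite strand, and 8 of them over 50% or more of their length. The epithelial keratins KRT8 (483 to 693 FPKM in group means), KRT18 (241 to 428 FPKM) and KRT19 (21.7 to 60.9 FPKM) passed the minimum. The keratin KRT5 (at most 0.0204 FPKM) and the epithelial adhesion genes CDH1 (at most 0.126 FPKM) and EPCAM (at most 0.780 FPKM) were below it. KRT7 was absent or 0 in every sample. The mesenchymal genes VIM (612 to 876 FPKM), THY1 (84.9 to 159 FPKM) and COL1A1 (47.8 to 167 FPKM) were high. These values limit the line as a model of airway epithelium. Markers of immune, endothelial, red blood and ciliated cells that were in the files were below the minimum. Summed FPKM ran between 199985 and 220259 per library, the noncoding genes held 0.409% to 0.459% of it, and wells of a group correlated at 0.983 to 0.992 over all genes. Over the noncoding genes alone the wells of a group correlated at 0.921 to 0.986. Well 3 with electronic heating at 2 h had the highest summed FPKM (220259, against 212878 and 210475 in wells 1 and 2) and lay nearest to the control wells in ADAMTSL4-AS1, MBNL1-AS1 and TIPARP-AS1. Without it, electronic heating at 2 h called 34 noncoding genes in place of 45. With any 1 well of these groups left out the count lay between 32 and 43, so the loss was not particular to this well.

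Promoter windows from RefSeq (GRCh38.p14, 250 bases before to 50 after a transcript start) are shown for 3 genes on which the results turn: LINC00346, which rose at 2 h with the charcoal-heated smokes, and SNHG7 and SNHG12, the host genes with the largest rises at 24 h. Capitals mark matches, on either strand, to the motifs searched.
LINC00346: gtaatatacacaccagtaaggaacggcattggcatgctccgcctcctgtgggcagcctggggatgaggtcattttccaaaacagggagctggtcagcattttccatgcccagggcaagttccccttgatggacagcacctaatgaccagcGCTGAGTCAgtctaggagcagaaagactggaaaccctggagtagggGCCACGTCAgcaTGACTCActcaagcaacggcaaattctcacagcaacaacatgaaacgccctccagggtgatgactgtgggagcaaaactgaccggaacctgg
SNHG7: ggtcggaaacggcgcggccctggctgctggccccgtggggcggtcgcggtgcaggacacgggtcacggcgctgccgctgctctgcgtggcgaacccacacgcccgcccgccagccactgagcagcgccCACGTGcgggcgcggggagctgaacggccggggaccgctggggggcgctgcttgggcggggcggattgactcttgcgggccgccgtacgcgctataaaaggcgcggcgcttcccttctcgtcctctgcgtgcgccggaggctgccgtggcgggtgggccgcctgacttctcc
SNHG12: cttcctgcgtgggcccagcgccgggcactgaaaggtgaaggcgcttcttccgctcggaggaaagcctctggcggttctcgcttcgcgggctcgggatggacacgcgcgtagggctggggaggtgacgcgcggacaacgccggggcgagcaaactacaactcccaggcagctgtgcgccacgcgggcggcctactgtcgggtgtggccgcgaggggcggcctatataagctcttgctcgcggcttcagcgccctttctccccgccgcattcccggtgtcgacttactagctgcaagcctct

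The window of LINC00346 (chr13:110870259-110870558, minus strand) held 2 AP-1 motifs (TGACTCA) and 2 antioxidant response element cores (TGACNNNGC); the first of each overlap. AP-1 is the Fos and Jun dimer of immediate stress responses, and the antioxidant core is bound by NRF2. The window of SNHG7 (chr9:136728135-136728434, minus strand) held 1 E-box (CACGTG), a site of Myc and related factors. The window of SNHG12 (chr1:28581824-28582123, minus strand) held none of the motifs. Over the 146 windows of the 128 genes with a window, AP-1 was present in 5.48%, against 4.95% of all 35116 windows in the table. The antioxidant core was present in 18.5% of these windows and in 13.3% of all windows. The shares were 9.59% and 5.51% for the aryl hydrocarbon receptor core (TNGCGTG), 10.3% and 7.26% for the E-box, and 2.05% and 1.85% for the cyclic AMP element (TGACGTCA). A match is a stretch of letters and no evidence of binding.

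Most of the noncoding genes were low. Their median over 30 samples was 1.32 FPKM, against 7.08 FPKM for all genes tested, and 64 of the 168 genes reached 1 FPKM in every sample. The median was 4.52 FPKM for SNHG, 1.24 FPKM for LINC and 1.22 FPKM for antisense genes. The highest were LRRC75A-AS1 (152 FPKM; current symbol SNHG29, a snoRNA host), ADAMTSL4-AS1 (96.2 FPKM), LINC00657 (69.9 FPKM; current symbol NORAD, a sponge of Pumilio proteins), SNHG6 (52.7 FPKM), SNHG4 (52.5 FPKM), FGD5-AS1 (44.5 FPKM) and SNHG3 (29 FPKM). In current RefSeq 35 of the 168 genes have another symbol and 7 are listed as protein coding, all of them matched by synonym. Among these are LINC00116 (MTLN), LINC00998 (SMIM30), LINC00341 (SYNE3) and LINC01279 (CCDC80). The genes just inside the minimum were BOLA3-AS1, CIRBP-AS1 and ENTPD3-AS1, the first with a third-highest FPKM of 1.01. Just outside it were TTN-AS1 (0.998 FPKM), CCDC183-AS1 (0.996 FPKM) and FOXD2-AS1 (0.993 FPKM).

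**Figure D1:**
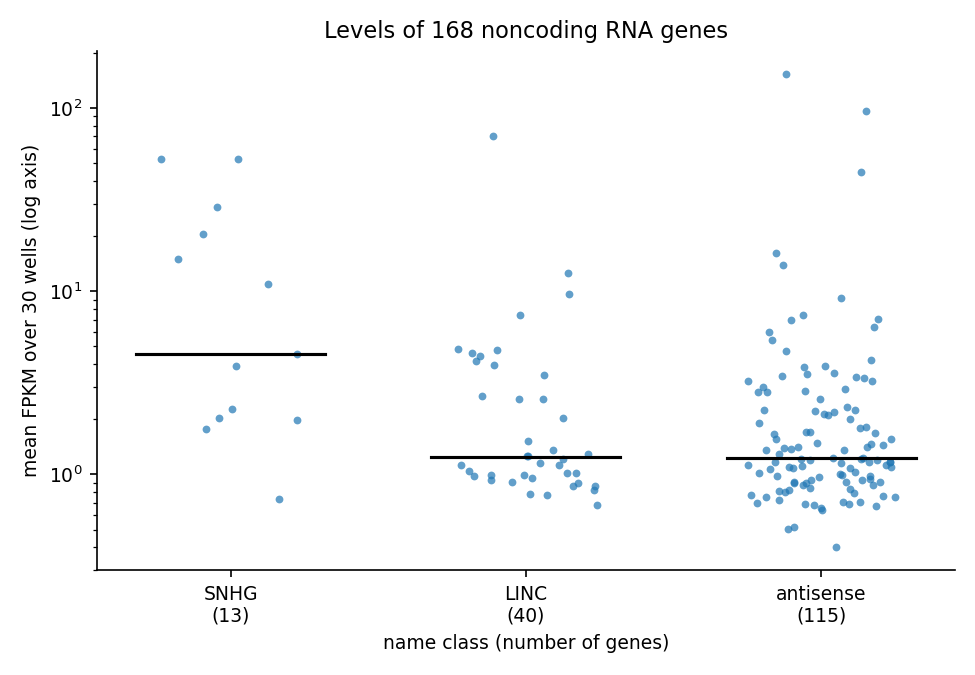
Mean FPKM over 30 wells (log axis) of each gene, by name class; points are genes and bars the class medians (4.52, 1.24 and 1.22 FPKM). The SNHG genes sit highest as a class, while single antisense and LINC genes reach 152 and 69.9 FPKM.

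Each exposure was compared with the internal control of the same time. Differences are on the log2(FPKM + 1) scale from a limma fit over the 8531 genes, and a gene is called at an adjusted p under 0.05 over all genes. This scale understates the change of low genes. In each of the 8 comparisons a smaller share of the noncoding genes than of all genes was called, and the difference in share was not tested. At 2 h charcoal called 28 genes (16.7%, against 24.4% of all genes tested), herbal shisha with charcoal 43 (25.6%, against 38.2%), tobacco with charcoal 34 (20.2%, against 35.2%) and tobacco with electronic heating 45 (26.8%, against 34% of all genes). At 24 h charcoal called 9 (5.36%, against 9.87%), herbal shisha with charcoal 22 (13.1%, against 26.8%), tobacco with charcoal 42 (25%, against 44.5%) and tobacco with electronic heating 73 (43.5%, against 63.8%). In all, 127 of the 168 genes were called in at least 1 of the 8 comparisons (75.6%, against 87.8% of all genes tested). These shares were not matched on level: 106 of the 168 genes averaged under 2 FPKM, against 1808 of all 8531. In each of the 8 comparisons the share was lower among these 106 genes than among all genes averaging under 2 FPKM. It was also lower among the 40 noncoding genes averaging 2 to under 5 FPKM than among all such genes. With electronic heating at 24 h these shares were 36.8%, against 50.9%, and 52.5%, against 61.2%. Among the 22 noncoding genes averaging 5 FPKM or more, the share exceeded that of all such genes in some comparisons. These were charcoal (27.3%, against 24.8%), herbal shisha (40.9%, against 38.2%) and electronic heating (50%, against 34.2%) at 2 h and tobacco with charcoal at 24 h (59.1%, against 52.2%). In the other comparisons it was lower.

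Most calls were small. The median size of the 296 calls was 0.35 on the log2 scale, and 11 calls in 8 genes reached a 2-fold difference on this scale. Of these 8 genes, LINC00431, LINC01279 and DENND5B-AS1 were listed at 0 in some libraries, and ADAMTSL4-AS1, TMPO-AS1, SNHG7, SNHG12 and LINC00707 were not. LINC00431 was listed at 0 in all 3 electric wells at 2 h, against 3.42, 3.58 and 3.32 FPKM in control wells.

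**Figure D2:**
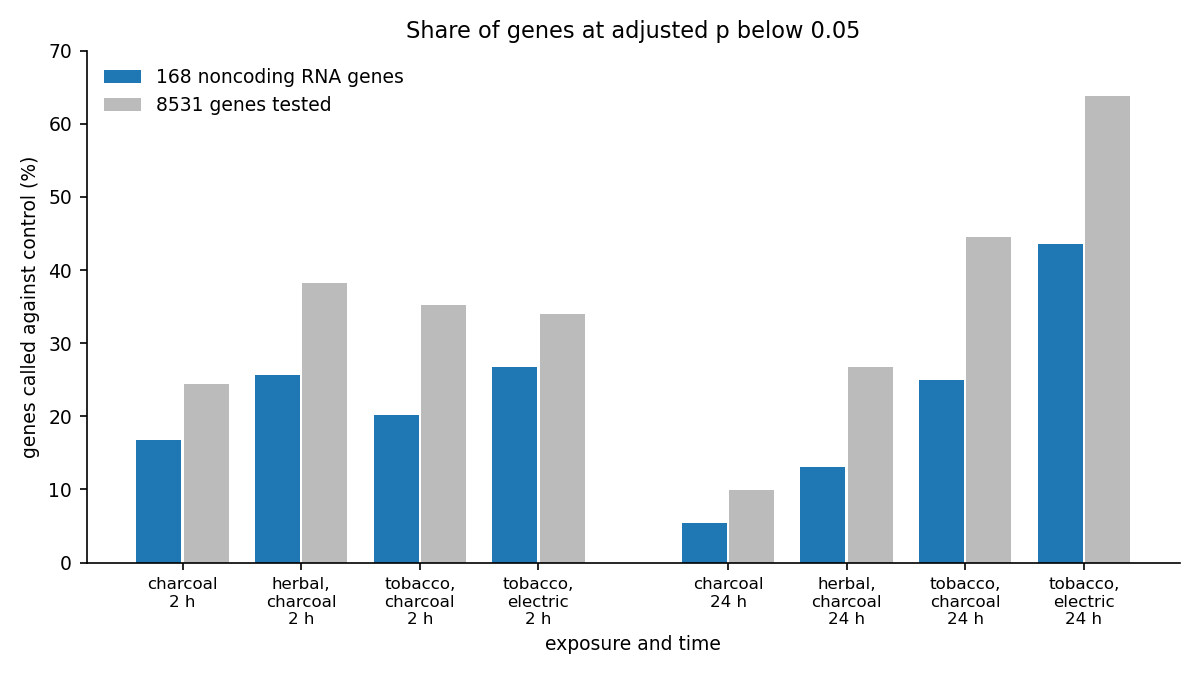
Percent of genes called against control for the 168 noncoding RNA genes (blue) and all 8531 genes tested (grey), by exposure and time. The blue bar is the lower one in each pair, and the highest blue bar is tobacco with electronic heating at 24 h (43.5%).

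The direction of the small 2 h changes depended on scaling. As deposited, 13 genes were higher and 15 lower with charcoal (of all genes tested, 8.16% higher and 16.2% lower). With herbal shisha 16 were higher and 27 lower (10.6% and 27.7% of all genes), with tobacco and charcoal 10 higher and 24 lower (8.5% and 26.7%), and with electronic heating 24 higher and 21 lower (9.27% and 24.8%). With median-of-ratios scaling the calls were 15 higher and 8 lower, 23 higher and 16 lower, 16 higher and 17 lower, and 30 higher and 16 lower in the same order. The median of all genes was between -0.08 and -0.04 in these comparisons as deposited. At 24 h charcoal gave 7 higher and 2 lower as deposited, against 6.05% and 3.82% of all genes (6 and 3 with the other scaling). Herbal shisha gave 13 higher and 9 lower, against 16.5% and 10.4% of all genes (8 and 12 with the other scaling). Tobacco with charcoal gave 21 higher and 21 lower, against 25.9% and 18.6%, and electronic heating 34 higher and 39 lower, against 34.3% and 29.5% of all genes.

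Left-out wells also moved the smaller counts. The 28 genes for charcoal at 2 h became 17 without control well 1 and 18 without charcoal well 3, and the 43 for herbal shisha became 28 without herbal well 2. The 9 genes for charcoal at 24 h became 4 without control well 2, charcoal well 1 or charcoal well 3. The 22 for herbal shisha at 24 h became 13 without control well 1, 7 without control well 2 and 6 without herbal well 3, and the 42 for tobacco with charcoal became 26 without control well 2. The count for electronic heating at 24 h lay between 60 and 67 with any 1 well left out.

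The early response was led by ADAMTSL4-AS1 (chr1:150560895-150574552, minus strand), whose few overlapping exon bases face the matrix protein gene ADAMTSL4. At 2 h it stood at 113, 112 and 103 FPKM with charcoal, at 145, 153 and 146 FPKM with herbal shisha, at 141, 122 and 135 FPKM with tobacco and charcoal, and at 182, 186 and 142 FPKM with electronic heating, against 73.2, 72.4 and 73.6 FPKM in control wells. Each exposed well was above every control well. The log2 differences were 0.57 ± 0.08, 1.01 ± 0.08, 0.85 ± 0.08 and 1.2 ± 0.08 (SE; limma adjusted p 4.6e-06, 7.7e-10, 1.4e-08 and 4.1e-11). Herbal shisha exceeded charcoal alone by 0.44 ± 0.08 (adjusted p 0.00028), and tobacco with charcoal was below electronic heating by -0.35 ± 0.08 (adjusted p 0.0022), or by -0.47 without electric well 3. The heat source call was lost when only these groups were fitted. At 24 h the gene had 82.0, 72.3 and 84.8 FPKM with electronic heating, against 66.9, 70.2 and 61.4 FPKM in control wells (0.26 ± 0.08, adjusted p 0.0048).

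The gene on the other strand moved differently. ADAMTSL4 did not pass the test with electronic heating at 2 h (log2 0.02 ± 0.12, adjusted p 0.90), and at 24 h it fell to 3.11, 3.16 and 2.89 FPKM with electronic heating, against 12.3, 13.4 and 10.9 FPKM in control wells (-1.70 ± 0.12, adjusted p 5.5e-11). The exons of ADAMTSL4-AS1 overlap those of ADAMTSL4 over 4.15% of their length. Reads running on from a neighbouring gene of the same strand cannot be told apart from those of the antisense gene in these values.

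MBNL1-AS1, antisense to a splicing factor gene, rose with each smoke at 2 h. It had 1.95, 1.78 and 1.56 FPKM with charcoal, 1.65, 1.76 and 1.41 FPKM with herbal shisha, 1.47, 1.59 and 1.47 FPKM with tobacco and charcoal, and 1.60, 1.53 and 1.05 FPKM with electronic heating, against 0.83, 0.96 and 0.69 FPKM in control wells. No exposed well overlapped the controls. The gene reached 1 FPKM in 12 of the 30 samples, which were these exposed wells. It thus entered the genes tested through the groups where it is high, and its rises are a description. The differences ran between 0.39 and 0.60 on the log2 scale. At 24 h it was lower than control with both tobacco smokes, by -0.24 ± 0.08 each (adjusted p 0.019 with charcoal and 0.014 with electronic heating).

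LINC00346 (current symbol PRECSIT) rose at 2 h with herbal shisha and with tobacco and charcoal. It had 3.26, 3.46 and 3.43 FPKM with herbal shisha and 3.11, 2.93 and 3.21 FPKM with tobacco and charcoal, against 2.25, 2.21 and 1.19 FPKM in control wells (0.63 ± 0.13 and 0.52 ± 0.13, adjusted p 5.3e-04 and 0.0029). With charcoal alone it had 2.83, 2.53 and 3.00 FPKM (0.41 ± 0.13, adjusted p 0.023), a call lost without control well 3, charcoal well 1 or charcoal well 3. With electronic heating it had 3.49, 1.86 and 2.00 FPKM and did not pass the test (0.25 ± 0.13, adjusted p 0.15). LINC00472 rose in all 4 comparisons at 2 h, by 0.32 to 0.49 on the log2 scale, and the call for tobacco with charcoal was lost without its well 3. LINC00472 reached 1 FPKM in 12 of the 30 samples, in 4 groups, so its rises may in part be a product of the choice.

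TIPARP-AS1 overlaps the start of TIPARP, a target of the aryl hydrocarbon receptor that senses smoke hydrocarbons. It had 0.83, 0.78 and 0.65 FPKM with charcoal, 0.67, 2.93 and 0.52 FPKM with herbal shisha, 0.86, 0.95 and 0.68 FPKM with tobacco and charcoal, and 1.45, 1.5 and 0.95 FPKM with electronic heating, against 0.12, 0.25 and 0.14 FPKM in control wells. Every exposed well was above every control well, but on the log2(FPKM + 1) scale only herbal shisha (0.88 ± 0.27, adjusted p 0.011) and electronic heating (0.97 ± 0.27, adjusted p 0.0069) passed the test. The herbal call was lost without herbal well 2, the highest. The gene reached 1 FPKM in 4 of the 30 samples, 2 of them electric wells at 2 h. It thus entered the genes tested through a group where it is high, and its difference with electronic heating is a description. TIPARP itself rose to 51.1, 53.3 and 34.2 FPKM with electronic heating, against 19.1, 19.3 and 19 FPKM in control wells (1.2 ± 0.11, adjusted p 1.5e-08). The exons of the pair overlap over 2.95% of TIPARP-AS1, but part of its interval also lies within that of TIPARP. Reads from unspliced TIPARP transcripts cannot be told apart from those of TIPARP-AS1.

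Some genes fell together at 2 h. BAIAP2-AS1, which lies 432 bases from the gene of an actin regulator, fell to 2.21, 2.16 and 2.1 FPKM with herbal shisha, 2.25, 2.01 and 2.17 FPKM with tobacco and charcoal, and 2.33, 2.06 and 2.42 FPKM with electronic heating, against 3.50, 3.52 and 3.48 FPKM in control wells. The log2 differences were -0.51, -0.52 and -0.46, each ± 0.07 (adjusted p 6.9e-06, 6.6e-06 and 3.0e-05). With charcoal alone it had 2.95, 3.08 and 2.82 FPKM and did not pass the test (-0.19 ± 0.07, adjusted p 0.063), and herbal shisha was below charcoal by -0.32 ± 0.07 (adjusted p 0.0025). PSMD5-AS1, at 2.51, 2.44 and 2.46 FPKM in control wells, fell in all 4 comparisons by 0.34 to 0.44 on the log2 scale, and NNT-AS1 fell in all 4 by 0.31 to 0.57.

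TMPO-AS1, antisense to a nuclear envelope gene and known from proliferating cells, fell with the charcoal-heated smokes at 2 h. It had 6.10, 5.48 and 5.70 FPKM with charcoal, 5.34, 6.26 and 4.85 FPKM with herbal shisha, and 6.72, 7.33 and 5.89 FPKM with tobacco and charcoal, against 8.71, 9.35 and 8.93 FPKM in control wells. The log2 differences were -0.57, -0.63 and -0.39, each ± 0.14 (adjusted p 0.0050, 0.0012 and 0.036). With electronic heating it had 6.41, 6.76 and 8.08 FPKM at 2 h (-0.31 ± 0.14, adjusted p 0.097).

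IDI2-AS1, in the isopentenyl diphosphate isomerase locus of sterol synthesis, moved in opposite directions with electronic heating and with the charcoal-heated smokes. It rose to 1.97, 2.79 and 1.79 FPKM with electronic heating and fell to 0.36, 0.43 and 0.32 FPKM with charcoal, 0.43, 0.22 and 0.40 FPKM with herbal shisha and 0.24, 0.27 and 0.27 FPKM with tobacco and charcoal, against 1.14, 0.64 and 0.70 FPKM in control wells. Electronic heating lay above, and each charcoal-heated group below, all control wells. The differences were 0.80 ± 0.11 (adjusted p 7.0e-06) and -0.40, -0.43 and -0.52, each ± 0.11 (adjusted p 0.011, 0.0043 and 8.3e-04); the charcoal call was lost without control well 1. Tobacco with charcoal was below electronic heating by -1.32 ± 0.11 (adjusted p 2.3e-08). The gene reached 1 FPKM in 4 of the 30 samples, the 3 electric wells at 2 h and 1 control well, so it entered the genes tested through the group where it is high, and its difference there is a description. The exons overlap the opposite strand over 69.8% of their length. IDI1 (adjusted p 0.98) and IDI2 (adjusted p 0.55) did not pass the test with electronic heating at 2 h.

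**Figure D3:**
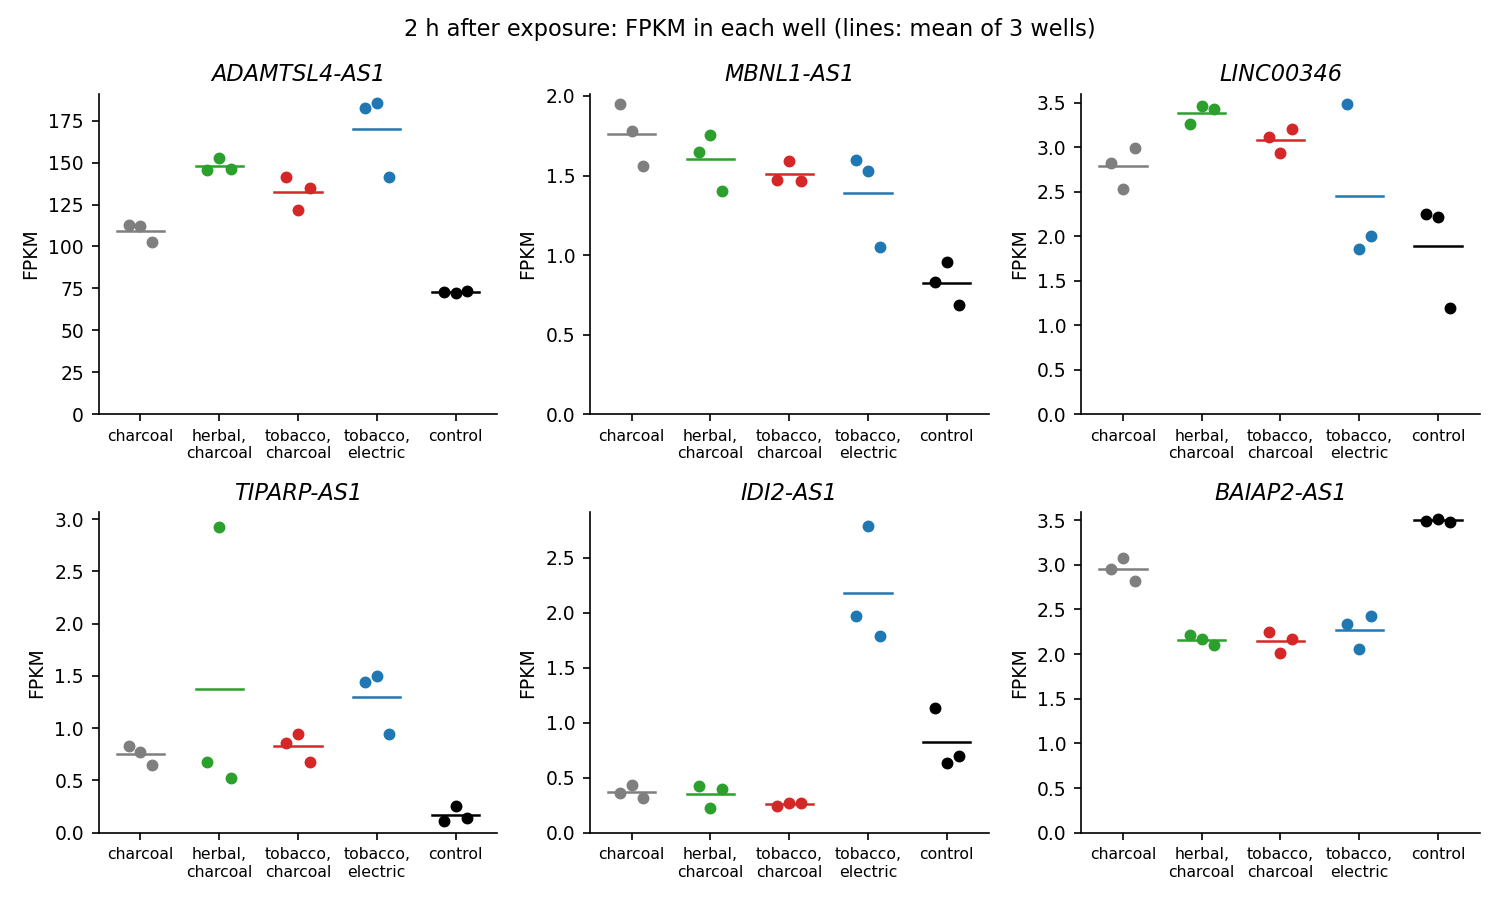
FPKM in each well at 2 h for 6 genes, exposures left of control; points are wells and lines the mean of 3. ADAMTSL4-AS1 and MBNL1-AS1 are above control in every exposed well, BAIAP2-AS1 is below it, and IDI2-AS1 is above control with electronic heating and below it with the charcoal-heated smokes.

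Both LINC01619 and THAP9-AS1 were higher with electronic heating at both times. LINC01619 had 6.33, 6.78 and 7.10 FPKM at 2 h, against 3.28, 3.34 and 3.57 FPKM in control wells (0.81 ± 0.11, adjusted p 6.1e-06), and 8.01, 5.34 and 9.83 FPKM at 24 h, against 4.08, 4.54 and 4.27 FPKM in control wells (0.69 ± 0.11, adjusted p 1.5e-05). None of the 6 comparisons of charcoal-heated smokes with control was called for it, and tobacco with charcoal was below electronic heating by -0.92 ± 0.11 at 2 h and -0.85 ± 0.11 at 24 h (adjusted p 5.2e-06 and 3.3e-06). THAP9-AS1, antisense to a transposase-derived gene, had 6.34, 5.49 and 3.93 FPKM with electronic heating at 2 h, against 2.38, 2.53 and 2.63 FPKM in control wells (0.81 ± 0.18, adjusted p 9.9e-04). At 24 h it had 4.79, 2.22 and 5.64 FPKM, against 2.36, 3.00 and 2.85 FPKM in control wells, and these groups overlap (0.42 ± 0.18, adjusted p 0.044).

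The snoRNA hosts were next taken as a class at 24 h. Of 13 SNHG genes, electronic heating raised 6 and lowered 1 (46.2% and 7.69%, against 34.3% and 29.5% of all genes tested). Tobacco with charcoal raised 5 and lowered 2 (38.5% and 15.4%, against 25.9% and 18.6% of all genes). Herbal shisha raised 2 (15.4%, against 16.5% of all genes raised), and charcoal alone changed none by the limma test (against 9.87% of all genes), where 2 had an unadjusted p under 0.05. The SNHG median was 0.23 on the log2 scale with electronic heating and 0.11 with tobacco and charcoal, against 0.03 and 0.04 over all genes tested. At 2 h charcoal and tobacco with charcoal each called 1 SNHG gene (7.69%, against 24.4% and 35.2% of all genes), and herbal shisha and electronic heating each called 2 (15.4%, against 38.2% and 34%).

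SNHG7 (chr9:136724594-136728184, minus strand) had the lowest adjusted p of the SNHG genes. It stood at 25.9, 21.0 and 25.8 FPKM with electronic heating at 24 h, against 9.14, 9.44 and 9.68 FPKM in control wells (1.27 ± 0.09, adjusted p 3.0e-11). Tobacco with charcoal had 13.2, 11.9 and 11.7 FPKM (0.35 ± 0.09, adjusted p 0.0020), and was below electronic heating by -0.92 ± 0.09 (adjusted p 3.0e-08). At 2 h the gene had fallen with herbal shisha (6.53, 7.23 and 6.70 FPKM) and with tobacco and charcoal (6.84, 6.59 and 7.05 FPKM), against 8.70, 9.04 and 8.62 FPKM in control wells (-0.32 ± 0.09 each, adjusted p 0.0041 and 0.0046). The neighbour FAM69B, which overlaps its end on the other strand, rose by 0.42 at 24 h with electronic heating (adjusted p 0.0012) at a mean of 0.964 FPKM.

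SNHG12 (chr1:28578538-28582983, minus strand) had 5.13, 3.69 and 8.33 FPKM with electronic heating at 24 h, against 1.45, 1.18 and 2.24 FPKM in control wells (1.32 ± 0.19, adjusted p 3.1e-06). All 3 electric wells were above the controls. The groups exposed to charcoal-heated smoke held 0.91 to 1.61 FPKM and were not called. The gene TRNAU1AP, which overlaps its end on the other strand, fell (-0.64, adjusted p 1.0e-07). SNHG3 had 33.9, 33.4 and 32.6 FPKM with electronic heating, against 28.1, 27.4 and 28.9 FPKM in control wells (0.24 ± 0.04, adjusted p 1.1e-05).

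Other hosts moved less. SNHG21 rose at 24 h with herbal shisha (0.45), tobacco with charcoal (0.51) and electronic heating (0.49), each ± 0.13 (adjusted p 0.010, 0.0020 and 0.0018), and the herbal call was lost without control well 2 or herbal well 3. SNHG10 rose with tobacco and charcoal (0.29 ± 0.10, adjusted p 0.020) and with electronic heating (0.23 ± 0.10, adjusted p 0.041). SNHG16 was called with electronic heating (0.24 ± 0.10, adjusted p 0.044), a call lost under median-of-ratios scaling, with no filter, and without control wells 1 or 3 or electric wells 1 or 2. SNHG19 had 4.10 and 2.80 FPKM in electric wells 1 and 2 and was listed at 0 in well 3, against 4.01, 3.82 and 5.03 FPKM in control wells, and its call was lost without the well at 0. SNHG6 stood at 54.7, 58.7 and 57.2 FPKM with electronic heating at 24 h, against 56.0, 50.1 and 55.1 FPKM in control wells (0.08 ± 0.06, adjusted p 0.20). At 2 h it was called with electronic heating (0.15 ± 0.06, adjusted p 0.035), and tobacco with charcoal was below electronic heating (-0.20 ± 0.06, adjusted p 0.012).

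The antisense-named host LRRC75A-AS1 rose at 24 h with both tobacco smokes. It had 191, 180 and 173 FPKM with charcoal heating and 184, 201 and 174 FPKM with electronic heating, against 147, 147 and 154 FPKM in control wells (0.28 ± 0.06 and 0.31 ± 0.06, adjusted p 4.0e-04 and 4.5e-05). EPB41L4A-AS1, which hosts a small nucleolar RNA and overlaps the opposite strand over 55.9% of its exon length, had 12.6, 11.1 and 14.7 FPKM with electronic heating, against 6.60, 7.19 and 7.53 FPKM in control wells (0.76 ± 0.13, adjusted p 2.9e-05). At 2 h it was called with electronic heating only (0.45 ± 0.13, adjusted p 0.010), and not without electric well 1. At 24 h tobacco with charcoal was below electronic heating by -0.85 ± 0.13 (adjusted p 1.9e-05).

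LINC00888, now named SNHG33, rose at 24 h with each smoke that held shisha. It had 4.39, 4.74 and 5.25 FPKM with herbal shisha, 6.0, 5.02 and 4.44 FPKM with tobacco and charcoal, and 6.0, 5.93 and 5.33 FPKM with electronic heating, against 2.88, 3.26 and 2.76 FPKM in control wells. The differences were 0.55, 0.63 and 0.77, each ± 0.09 (adjusted p 2.2e-04, 1.3e-05 and 2.2e-07), and with charcoal alone 0.04 ± 0.09 (adjusted p 0.85). Herbal shisha was above charcoal by 0.50 ± 0.09 (adjusted p 3.2e-04). At 2 h none of the 4 exposures was called for it.

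Of 40 LINC genes, electronic heating at 24 h called 15 (37.5%, against 63.8% of all genes tested), with 8 higher and 7 lower (20% and 17.5%, against 34.3% and 29.5%). LINC00707 had 2.34, 2.51 and 2.42 FPKM, against 0.58, 0.70 and 0.80 FPKM in control wells (1.02 ± 0.10, adjusted p 4.2e-09), with no overlap. It reached 1 FPKM in 5 of the 30 samples, 3 of them these electric wells, so it entered the genes tested through the group where it is high, and this difference is a description. The charcoal-heated groups lay between 0.32 and 1.24 FPKM at 24 h and were not called against control, although herbal shisha exceeded charcoal by 0.49 ± 0.10 (adjusted p 5.0e-04). LINC00941 had 2.54, 1.92 and 2.40 FPKM, against 1.46, 0.75 and 1.54 FPKM in control wells (0.56 ± 0.14, adjusted p 0.0013). LINC00467 fell to 2.20, 3.24 and 2.63 FPKM, against 5.0, 4.86 and 5.37 FPKM in control wells (-0.73 ± 0.13, adjusted p 2.6e-05). LINC00882 had 0.35 and 0.53 FPKM in electric wells 1 and 2 and was listed at 0 in well 3, against 1.70, 0.76 and 0.92 FPKM in control wells.

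The abundant LINC00657 (NORAD), which guards chromosome stability, fell to 64.4, 66.8 and 67.4 FPKM with tobacco and charcoal and to 58.3, 65.4 and 58.5 FPKM with electronic heating at 24 h, against 78.9, 77.4 and 82.1 FPKM in control wells (-0.26 ± 0.08 and -0.38 ± 0.08, adjusted p 0.0082 and 1.4e-04). LINC00998 rose with herbal shisha, tobacco with charcoal and electronic heating (0.26, 0.51 and 0.24, each ± 0.08, adjusted p 0.016, 1.8e-05 and 0.0089). LINC00341 (by synonym the protein-coding SYNE3 in current RefSeq) and LINC01137 were the genes called in all 4 comparisons at 24 h. LINC00341 fell by 0.29 to 0.44 on the log2 scale; its charcoal call was lost without control well 3, charcoal well 1 or charcoal well 3, and its herbal call without control well 3 or any herbal well. LINC01137 rose by 0.32 to 0.38. Its charcoal call was lost without control well 2, charcoal well 1 or charcoal well 2, its herbal call without control well 2 or herbal well 3, and its call for tobacco with charcoal without control well 2, tobacco well 2 or tobacco well 3 and when only these groups were fitted.

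With charcoal alone 9 genes were called at 24 h. LINC01085 had 1.16, 1.47 and 1.58 FPKM, against 0.67, 0.57 and 0.56 FPKM in control wells (0.58 ± 0.11, adjusted p 0.0018). With electronic heating it had 0.81, 0.45 and 0.50 FPKM (-0.02 ± 0.11, adjusted p 0.89). LINC00467 had 3.44, 3.44 and 2.70 FPKM with charcoal (-0.54 ± 0.13, adjusted p 0.0077), a call lost without charcoal well 3.

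Of 115 antisense genes, electronic heating at 24 h called 51 (44.3%, against 63.8% of all genes tested), with 20 higher and 31 lower (17.4% and 27%, against 34.3% and 29.5%). TMPO-AS1 fell to 2.82, 4.53 and 2.58 FPKM, against 8.45, 8.86 and 8.38 FPKM in control wells (-1.18 ± 0.14, adjusted p 1.9e-07). PLCE1-AS1 fell to 0.17, 0.33 and 0.33 FPKM, against 1.14, 1.45 and 0.95 FPKM in control wells (-0.76 ± 0.11, adjusted p 1.3e-06). SERTAD4-AS1 fell to 1.2, 1.59 and 1.53 FPKM, against 3.32, 3.27 and 2.62 FPKM in control wells (-0.74 ± 0.09, adjusted p 1.8e-07). Electric and control wells did not overlap in any of these 3 genes.

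The abundant FGD5-AS1 and OIP5-AS1 fell with both tobacco smokes. FGD5-AS1 had 37.5, 44.1 and 43.1 FPKM with charcoal heating and 33.6, 36.7 and 35.5 FPKM with electronic heating, against 52.1, 52.1 and 52.7 FPKM in control wells (-0.33 ± 0.05 and -0.56 ± 0.05, adjusted p 6.2e-06 and 6.5e-10). OIP5-AS1, also known as cyrano, had 13.1, 14.2 and 15.4 FPKM with charcoal heating and 9.92, 12.6 and 11.4 FPKM with electronic heating, against 16.6, 17.4 and 17.1 FPKM in control wells (-0.25 ± 0.07 and -0.56 ± 0.07, adjusted p 0.0045 and 1.6e-07). In the other direction ZNF790-AS1 had 1.56, 1.74 and 2.14 FPKM with electronic heating, against 0.64, 0.51 and 1.08 FPKM in control wells (0.70 ± 0.10, adjusted p 2.0e-06).

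**Figure D4:**
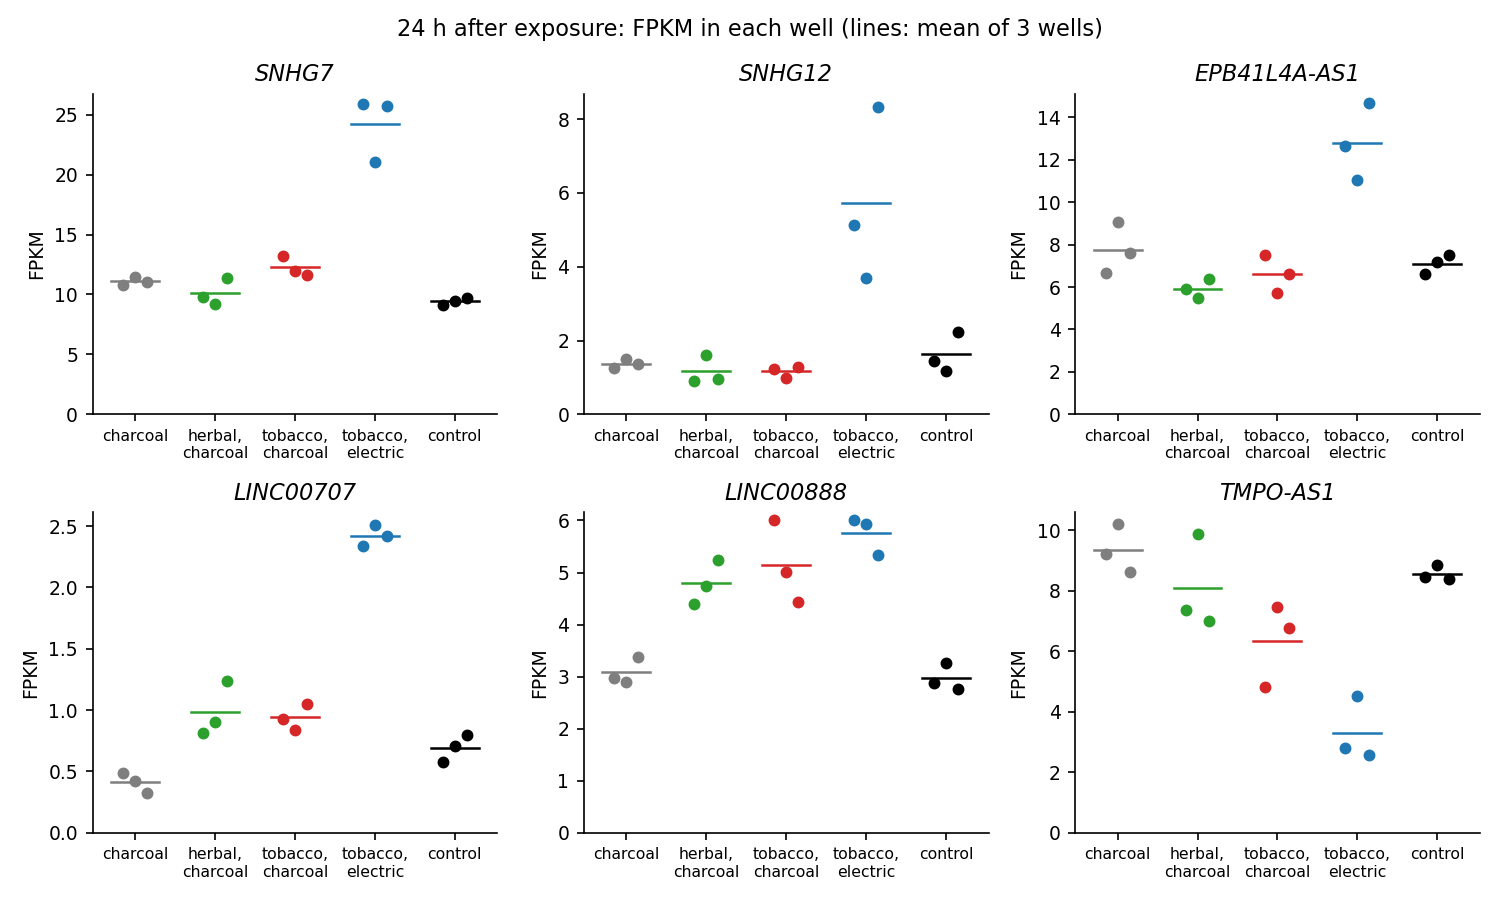
FPKM in each well at 24 h for 6 genes, exposures left of control; points are wells and lines the mean of 3. Electronic heating is apart from all control wells in each panel, LINC00888 is also higher with herbal shisha and with tobacco and charcoal, and TMPO-AS1 is the gene that fell.

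For 57 antisense genes the gene they are named after was also tested. With electronic heating at 24 h, 23 of the 57 antisense genes and 35 of the 57 named genes were called, against 63.8% of all genes tested, and 17 pairs had both called, 13 of them in the same direction and 4 in opposite directions. LMO7-AS1 (-0.68) and LMO7 (-0.82), C1QTNF1-AS1 (-0.60) and C1QTNF1 (-1.10), and FOXN3-AS1 (-0.44) and FOXN3 (-1.02) fell together on the log2 scale, and ZBTB11-AS1 (0.46) rose with ZBTB11 (0.50). C1QTNF1-AS1 and FOXN3-AS1 share no exon bases with their partner, but each overlaps the interval of its partner, and FOXN3-AS1 lies within that of FOXN3. Reads from unspliced partner transcripts cannot be told apart from theirs. The opposite pairs were ADAMTSL4-AS1, RARA-AS1 (-0.35, with RARA at 0.76), COX10-AS1 (-0.25, with COX10 at 0.43) and SVIL-AS1 (0.41, with SVIL at -0.23).

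Across the 57 pairs the 2 log2 differences correlated at Pearson r 0.37 and Spearman rho 0.45, given as a description since each pair shares its libraries and, in part, its exons. Pearson r was 0.35 in the 28 pairs with shared exon bases and 0.41 in the 27 without, some of which overlap outside exons. At 2 h with electronic heating 16 of the antisense genes and 24 of the named genes were called, against 34% of all genes tested, and 9 pairs had both genes called, 4 in the same and 5 in opposite directions, with r 0.15. RASAL2-AS1 (0.63) rose there while RASAL2 (-0.53) fell, and EP300-AS1 (0.26) rose while the acetyltransferase gene EP300 (-0.65) fell.

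**Figure D5:**
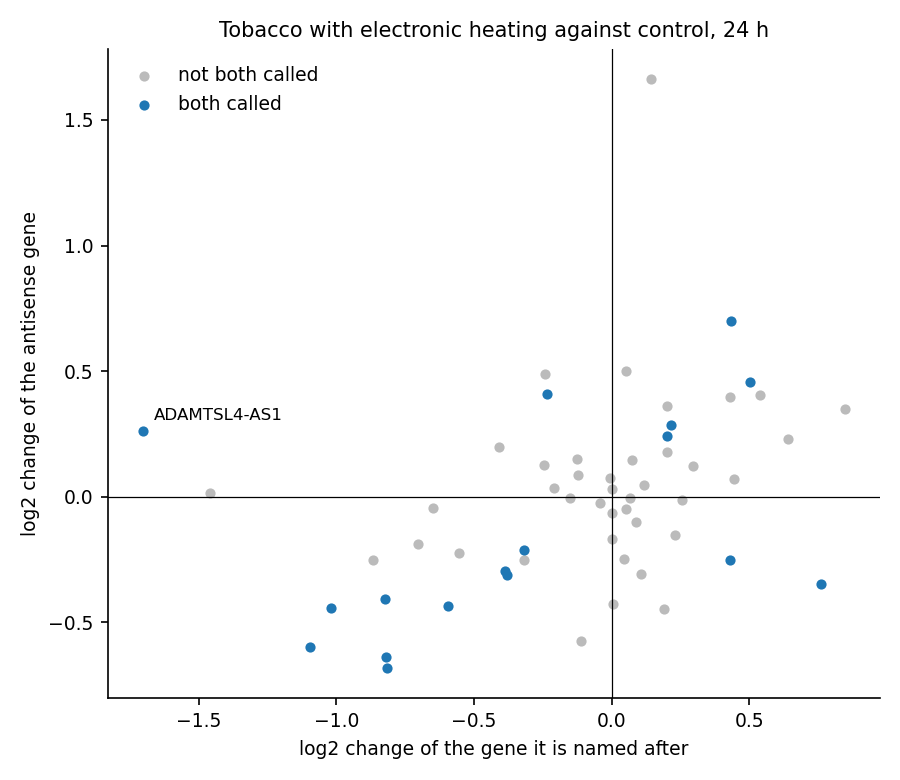
Log2 difference of 57 antisense genes (y axis) against that of the gene each is named after (x axis), tobacco with electronic heating minus control at 24 h; blue points are the 17 pairs with both genes called. Most blue points have both differences of the same sign, and ADAMTSL4-AS1 lies alone at the far left.

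Exposures were also compared with each other. At 2 h herbal shisha with charcoal differed from charcoal alone in 16 of the 168 genes (9.52%, against 24.4% of all genes tested), 9 higher and 7 lower (10.1% and 14.3% of all genes). That count was 8 without charcoal well 1 and 10 without herbal well 2. Tobacco with charcoal differed from herbal shisha with charcoal in none at 2 h by the limma test (0%, against 0.61% of all genes), where 12 had an unadjusted p under 0.05. At 24 h 5 genes differed between these (2.98%, against 5.12%), with 1 higher and 4 lower (2.41% and 2.71% of all genes). NNT-AS1 (-0.36 ± 0.08) and FGD5-AS1 (-0.20 ± 0.05) were lower and FAM212B-AS1 (0.34 ± 0.08) higher with tobacco. LINC01023 (-0.40 ± 0.10) and SNHG4 (-0.15 ± 0.04) were also lower. LINC01023 reached 1 FPKM in 3 of the 30 samples, 1 of them a herbal well at 24 h, so its difference is a description. The 5 became 1 without herbal well 1, 2 without herbal well 2 and 0 without tobacco well 1, so each count turned on a single well. At 24 h herbal shisha differed from charcoal alone in 28 genes (16.7%, against 31.5%), 17 higher and 11 lower (16.2% and 15.3% of all genes), which became 18 without charcoal well 1 and 15 without herbal well 3.

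The heat sources were compared with tobacco shisha in both. Tobacco with charcoal differed from tobacco with electronic heating in 26 genes at 2 h (15.5%, against 23.3% of all genes tested), 6 higher and 20 lower (10.6% and 12.7% of all genes), and in 51 at 24 h (30.4%, against 47.8%), 29 higher and 22 lower (24.9% and 22.9%). The 26 became 15 without tobacco charcoal well 3, 17 without electric well 3 and 9 when only these groups were fitted. At 24 h the lowest with charcoal heating relative to electronic heating were SNHG12 (-1.58 ± 0.19), SNHG7 (-0.92 ± 0.09), EPB41L4A-AS1 (-0.85 ± 0.13) and LINC01619 (-0.85 ± 0.11). TMPO-AS1 (0.78 ± 0.14), SERTAD4-AS1 (0.60 ± 0.09) and GAS6-AS2 (0.58 ± 0.08) were the highest of the genes never listed at 0.

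Time alone moved some genes in control wells. Between 24 h and 2 h 23 of the 168 genes differed (13.7%, against 16.9% of all genes tested), 11 higher and 12 lower at 24 h (7.44% and 9.44% of all genes), or 14 without control 2 h well 3. SNHG4 had 60.7, 58.0 and 62.2 FPKM at 24 h, against 48.7, 50.3 and 47.3 FPKM at 2 h (0.30 ± 0.04, adjusted p 5.2e-05). P4HA2-AS1 (0.53 ± 0.10) and EP300-AS1 (0.54 ± 0.10) were higher at 24 h, and GAS5-AS1 (-0.57 ± 0.13), IDI2-AS1 (-0.54 ± 0.11) and MORC2-AS1 (-0.50 ± 0.09) lower.

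The exposure effect itself differed between 24 h and 2 h in 22 genes for charcoal (13.1%, against 23.2% of all genes tested), 30 for herbal shisha (17.9%, against 32.3%), 34 for tobacco with charcoal (20.2%, against 41.1%) and 48 for electronic heating (28.6%, against 57.6%). Over all genes the median difference of effects was between 0.09 and 0.13 on the log2 scale as deposited, and nearer to 0 with median-of-ratios scaling. The split was 15 higher and 7 lower for charcoal as deposited, against 16.2% and 7% of all genes (9 and 10 with that scaling). It was 21 and 9 for herbal shisha, against 24% and 8.3% (11 and 14), 22 and 12 for tobacco with charcoal, against 30.3% and 10.8% (10 and 19), and 18 and 30 for electronic heating, against 34.8% and 22.8% (15 and 40).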

How the data were processed

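The authors deposited 1 table of FPKM values per sample. Per the submitters' processing notes, HISAT2 2.1.0, StringTie 1.3.4d and the hg38 build were used; libraries were made with a TruSeq kit and read as single ends, per the labels' protocols. Whole reads could not be recovered from low values (20.7% of their ratios lay within 0.1 of a whole number, against 20% if spread evenly), so the depth of each library is unknown and no counting interval is given. Each name was represented by its highest-mean row, and the 8531 names with 1 FPKM or more in 3 or more of 30 samples were tested. limma 3.58.1 in R 4.3.3 (trend and empirical Bayes) was fitted to log2(FPKM + 1) with 10 group means and 20 residual degrees of freedom, and p-values were Benjamini-Hochberg adjusted over all 8531 genes in each comparison, with a threshold of 0.05. The script was tested on simulated data. Tables were handled in Python 3.11.15 with numpy 2.4.6 and pandas 2.3.3, and plots were drawn with matplotlib 3.10.9. Accessions, coordinates and promoter windows came from RefSeq (160 of the 168 genes matched by accession, 7 by synonym and 1 by symbol) and exons from GENCODE 29 (164 matched). No gene's promoter from chromosome 8 is shown.

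Genes named were, for each exposure, up to 6 of the largest called rises and falls, a short fixed list of known noncoding genes, the 3 highest of each class and, between exposures and times, the 4 largest rises and falls; genes named beyond these were chosen after their values were seen. The genes and lists were chosen with earlier results of these data known. Alternatives were a pseudocount of 0.1, no filter on low values, median-of-ratios scaling, a fit of only the groups compared, replicate number as a block, counting only genes that average at least 1 FPKM, and each well left out.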

Additional observations from a re-analysis of the deposited data

Results flagged for a closer look

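The results below were picked out because the effect of an exposure at 24 h differed from its effect at 2 h, by the limma test of that difference (adjusted p below 0.05 over 8531 genes, on the log2 scale). Each value is the effect at 24 h minus the effect at 2 h. The median over all genes was between 0.09 and 0.13, so values are to be read relative to it. The 2 effects have different control wells. MBNL1-AS1 passed the minimum through the exposed wells at 2 h, so its values are a description.

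For charcoal, the difference was negative for ADAMTSL4-AS1 (-0.64), MBNL1-AS1 (-0.65), LINC00941 (-0.65) and LINC00346 (-0.59), whose 2 h effects were positive (0.57, 0.60, 0.39 and 0.41). It was positive for LINC01085 (0.87), NCK1-AS1 (0.72), TMPO-AS1 (0.68), LINC01089 (0.59), IDI2-AS1 (0.59), LINC00847 (0.44), PLCE1-AS1 (0.42) and PSMD5-AS1 (0.39).

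For herbal shisha with charcoal, it was negative for ADAMTSL4-AS1 (-1.21), MBNL1-AS1 (-0.66), LINC00346 (-0.58) and P4HA2-AS1 (-0.57). It was positive for PITPNA-AS1 (0.58), BAIAP2-AS1 (0.56), TMPO-AS1 (0.54), LINC00888 (0.52), LINC00339 (0.46) and LINC01137 (0.45).

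For tobacco with charcoal, it was negative for ADAMTSL4-AS1 (-0.92), MBNL1-AS1 (-0.71), P4HA2-AS1 (-0.58) and LINC00346 (-0.54). It was positive for LINC00888 (0.61), NIFK-AS1 (0.56), LINC00998 (0.48), IDI2-AS1 (0.42) and BAIAP2-AS1 (0.35).

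For tobacco with electronic heating, it was positive for SNHG12 (1.3), SNHG7 (1.05), LINC00707 (0.90), LINC00888 (0.78), ZNF790-AS1 (0.70) and BAIAP2-AS1 (0.31). It was negative for GAS6-AS1 (-1.15), SERTAD4-AS1 (-1.04), ST7-AS1 (-0.99), ADAMTSL4-AS1 (-0.93), TMPO-AS1 (-0.87), IDI2-AS1 (-0.85) and PLCE1-AS1 (-0.66). IDI2-AS1 had a difference of the opposite sign for charcoal (0.59) and for tobacco with charcoal (0.42). Both IDI2-AS1 and LINC00707 passed the minimum through the electric wells, at 2 h and at 24 h in this order.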

How the results depend on the processing

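Fitting only the groups compared changed some counts of called genes by more than 1.5 times: tobacco with charcoal against electronic heating gave 9 (26 with all groups) at 2 h and 29 (51) at 24 h, tobacco with charcoal against control at 24 h gave 27 (42), herbal shisha against charcoal at 24 h gave 17 (28), tobacco with charcoal against herbal shisha at 24 h gave 0 (5), and the charcoal effect at 24 h minus 2 h gave 36 (22); the cause was not tested. The other settings tried, apart from leaving out wells, and counting only genes never listed at 0 (chosen after seeing the data), kept each count within 1.5 times. Leaving out 1 well moved several counts by more than that. With 1 well left out, counts against control ranged over 17 to 21 (charcoal), 28 to 35 (herbal), 25 to 30 (tobacco, charcoal) and 32 to 43 (electric) at 2 h, and over 4 to 8, 6 to 21, 26 to 44 and 60 to 67 at 24 h in the same order. Between exposures they ranged over 8 to 13 (herbal against charcoal), 0 to 0 (tobacco against herbal) and 15 to 25 (tobacco charcoal against electric) at 2 h, and over 15 to 30, 0 to 7 and 39 to 51 at 24 h; over 14 to 18 for control over time; and over 15 to 22, 24 to 32, 23 to 35 and 42 to 53 for the effects at 24 h minus 2 h. Of 199 calls of named genes none changed sign, and 184 held under median-of-ratios scaling, 180 with no filter, 190 with a pseudocount of 0.1 and 152 with only the groups compared; 121 held without each well in turn. Deviations of wells that share a number correlated at a median r of 0.03, against -0.02 for wells of different number; 6 of 60 same-number pairs were over 0.1, so the numbers were not taken as pairs, and 19 of 30 wells correlated best with their own number, a hint from the data and not the design; with replicate number as a block, electronic heating at 24 h called 69 genes in place of 73, and 190 of the 199 calls held. Depth is unknown, so what it limits cannot be given.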

Other observations

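Other noncoding genes outside the name rule were listed as a comparison, and 9 of 23 passed the minimum. With electronic heating at 24 h, 3 of the 9 rose and 2 fell by the limma test (34.3% of all genes tested rose and 29.5% fell). ZFAS1, a snoRNA host, had 116, 93.6 and 101 FPKM with electronic heating at 24 h, against 55.1, 42.9 and 58.3 FPKM in control wells (0.98 ± 0.12, adjusted p 1.1e-07). DANCR had 25.1, 23.7 and 24.0 FPKM, against 16.3, 14.5 and 17.6 FPKM in control wells (0.57 ± 0.07, adjusted p 1.0e-07). In both genes all electric wells were above all control wells. DANCR also rose at 24 h with herbal shisha (0.40 ± 0.07, adjusted p 1.5e-04) and with tobacco and charcoal (0.62 ± 0.07, adjusted p 1.9e-07). It did not pass the test with charcoal alone (-0.09 ± 0.07, adjusted p 0.49). ZFAS1 was called with none of the charcoal-heated smokes at 24 h.

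MIR22HG, the host of a microRNA, rose at 2 h with charcoal (0.88), herbal shisha (0.97), tobacco with charcoal (0.68) and electronic heating (1.37), each ± 0.19 on the log2 scale, and was still higher with electronic heating at 24 h (0.93 ± 0.19, adjusted p 1.8e-04). With tobacco and charcoal it was lower than control at 24 h (-0.50 ± 0.19, adjusted p 0.034). NEAT1, the scaffold of nuclear paraspeckles, had 8.86, 7.90 and 4.01 FPKM with electronic heating at 2 h, against 3.66, 3.31 and 3.29 FPKM in control wells (0.78 ± 0.17, adjusted p 9.4e-04). H19, an imprinted gene, fell to 0.238, 0.283 and 0.422 FPKM with electronic heating at 24 h, against 0.897, 1.14 and 0.997 FPKM in control wells (-0.61 ± 0.09, adjusted p 2.2e-06). At 24 h it also fell with herbal shisha (-0.46 ± 0.09, adjusted p 6.5e-04) and with tobacco and charcoal (-0.72 ± 0.09, adjusted p 1.1e-06). It rose with charcoal alone (0.30 ± 0.09, adjusted p 0.034). MIR210HG, the host of a hypoxia-induced microRNA, had 0.129 and 0.230 FPKM in electric wells 1 and 2 at 24 h and was listed at 0 in well 3, against 1.12, 1.36 and 1.38 FPKM in control wells. At 24 h it also fell with herbal shisha (-0.62 ± 0.09, adjusted p 4.1e-05) and with tobacco and charcoal (-0.94 ± 0.09, adjusted p 5.3e-08). With charcoal alone it did not pass the test (-0.21 ± 0.09, adjusted p 0.17). In control wells MIR210HG was higher at 24 h than at 2 h (0.75 ± 0.09, limma adjusted p 4.1e-06). The control wells at 24 h each reached 1 FPKM and helped the gene pass the minimum, so its falls against them are a description. How far these comparison genes passed the minimum through single groups was not counted.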
